A study of Danio rerio with 12 samples.

Results

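The genes described are the cytokine, chemokine and innate immune genes of the zebrafish, chosen by their symbols: interleukins, interferons, chemokines (ccl, cxcl), tumour necrosis factor genes (tnf), colony-stimulating factors (csf), their receptors, the toll-like receptors, the jak, stat, irf, socs and NF-kappa-B genes and myd88. The genes irf8, csf1ra and il17rd were left out by name. This gave 183 genes of 15267 named genes in the table, each represented by the start-site window with the highest mean signal. The rule itself uses symbols and signal levels and no difference between the groups. A family symbol also brings in genes that only share a name: 4 irf2bp genes and 7 tnfaip genes. The first are named for binding of Irf2 and the second for induction by tumour necrosis factor, or for likeness to genes so named.

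Open chromatin was profiled with ATAC-seq: Tn5 transposase cuts and tags DNA that is not wrapped up in nucleosomes. The study compared supt16h-/- embryos with wildtype siblings at 32 hours post fertilization, when blood is primitive and the first macrophages and neutrophils are present. Supt16h is a subunit of FACT, the chaperone that loosens and rebuilds nucleosomes as polymerases pass, and the comparison asks how its loss changes accessibility. Both groups were deyolked whole embryos, with 50000 cells per library, 3 biological replicates per group and 2 technical libraries per replicate, hence 12 libraries. The labels name neither the allele nor the background beyond wildtype, nor how many embryos went into each library. Signal at a start site does not check a genotype, so the labels were taken as given. Since whole embryos were used, every value is an average over all cell types, and a change in the number of cells of one type cannot be told apart from a change in accessibility per cell.

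Cytokines and chemokines are secreted proteins that immune and tissue cells use to call and instruct one another. Interferons and many interleukins bind receptors that activate Jak kinases, which phosphorylate Stat transcription factors, and Socs proteins are feedback inhibitors of that route. Toll-like receptors recognise microbial molecules and signal through Myd88 to NF-kappa-B factors, which are held in the cytoplasm by I-kappa-B proteins, and Irf factors control interferon genes. Some chemokine pairs, such as Cxcl12a and Cxcr4b, also guide migrating cells in the healthy embryo.

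Each value is a normalized log2 signal over the 4000 bp around an annotated start site (GRCz10), so that all windows have the same length. Levels of different genes are set side by side as deposited. How far the aligner and read filters, which are not given, shaped the level of single windows is unknown. Distal elements were not analysed here. Replicate values are means of the 2 technical libraries, errors of levels are SD over 3 replicates, errors of differences are the standard error from limma, and every difference is mutant minus wildtype. The deposited values shrink low signal, so a fold computed from them understates the change. A gene is called higher or lower where limma's p-value, adjusted by Benjamini and Hochberg over all 15431 windows tested, was under 0.05. The library medians lay between 7.35 and 7.43, and the read depth is unknown because no counts were given. Repeat libraries of one replicate differed by a median of 0.12 over the immune genes, and the median SD between replicates was 0.090 in mutants and 0.078 in wildtype. The slope of each replicate on the mean of all was 0.994, 1.04 and 1.04 in mutants, against 0.951, 0.988 and 0.988 in wildtype. Strong windows thus stood further above weak ones in every mutant replicate than in any wildtype replicate, though only slightly in mutant replicate 1. A fit with this slope as a covariate is given as an alternative below. The slope was computed from these same values and separates the groups, so such a fit can widen errors or remove a true difference. A call lost under the slope covariate does not show that a difference is absent.

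Of the 183 genes, 179 had a mean log2 signal of at least 4 and were tested. The other 4 windows were nearly empty: ccl34a.4, ccl39.3 and tnfaip2a averaged 1.71, -0.52 and 1.26 in mutants, against 1.72, -0.54 and 1.24 in wildtype, and socs3a stood at 0 in every library. Windows of the immune genes had a lower median signal than tested windows in general. The median level of the tested genes was 6.02 in mutants and 6.10 in wildtype, while that of all tested windows was 7.37 in mutants and 7.40 in wildtype. The lowest tested windows were those of the interleukin 2 receptor gene il2rb and the chemokine genes ccl35.1 and ccl34a.3, with levels of 3.96, 3.95 and 4.19 in mutants and 4.06, 4.07 and 4.25 in wildtype. The highest belonged to irf2bp2a, irf2bpl and stat3. In wildtype, the window of irf2bp2a exceeded 99.9% of all tested windows, that of irf2bpl 98.3% and that of stat3 98.8%.

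In the mutants 11 immune genes were called higher and 6 lower, 17 of 179. Over all windows 11.6% were called, 8.02% higher and 3.58% lower, a share near that of the immune genes. The genes that rose were signalling genes inside the cell (irf2a, rela, jak2b, socs3b, socs5a, socs5b and nfkbiab) and all 4 irf2bp genes. Those that fell were the ligand genes il15, il17c, tnfsf10l and ifnphi1, the receptor gene tnfrsf21 and tnfaip8l3. None of these 17 windows overlapped the window of another gene. With the slope covariate 2 were called higher (irf2bpl and irf2bp2a) and 0 lower, and 442 windows in all in place of 1790. For 6 of the 11 and 4 of the 6, all 6 mutant libraries lay on one side of all 6 wildtype libraries. These genes were picked by their difference, so their separation is a description and no further support. The share of all windows with libraries so separated was not counted.

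The share of windows called depended on signal level, for immune genes as for all. Below a level of 6, where 86 immune genes lay, none was called, against 0.394% higher and 0.625% lower of all windows. Between 6 and 8, 2 of 63 immune genes were called higher (3.17%, against 3.14% of all windows) and 6 lower (9.52%, against 5.52%). Between 8 and 10, 6 of 26 were called higher and none lower, where 16.4% of all windows were called higher. At 10 and above, 3 of 4 were called higher, beside 42.2% of all windows. With the deposited scaling the calls thus ran downward among windows of middle strength and upward among strong ones, in the immune genes and in the table as a whole. The levels were not counted under other scalings. Of all called windows 69.2% were higher as reported, against 55.8% with quantile and 58.9% with cyclic loess normalization.

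**Figure D1:**
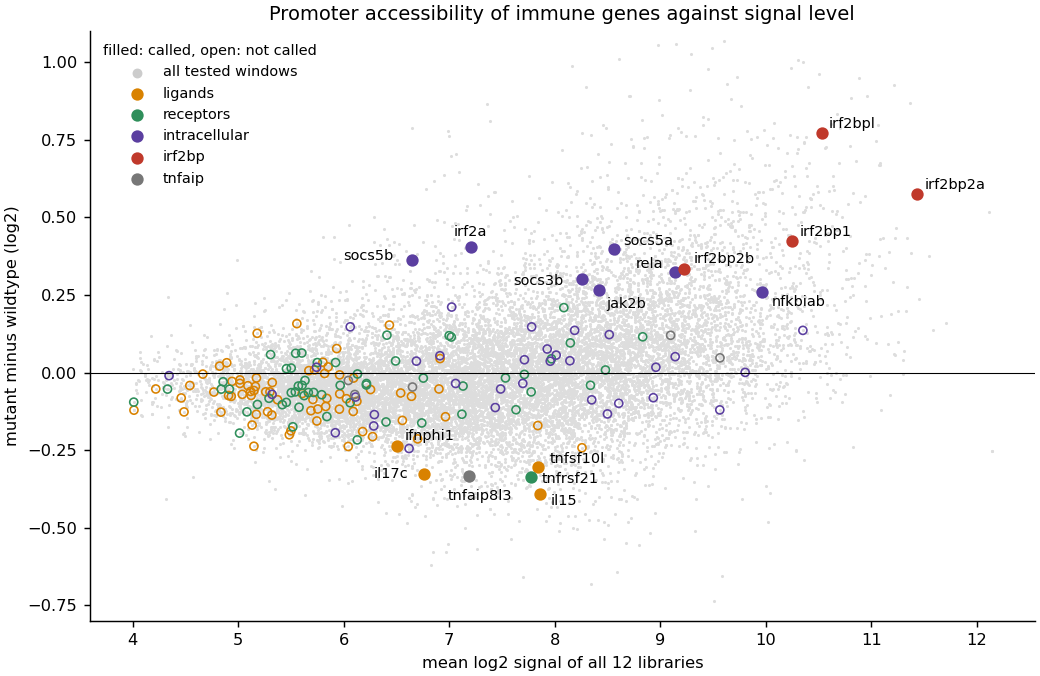
Each point is a start-site window: the horizontal axis is the mean log2 signal of all 12 libraries and the vertical axis is mutant minus wildtype on the log2 scale. Grey points are all 15431 tested windows, coloured circles are the 179 immune genes by role, and filled circles are the 17 called genes. Called genes that were lower lie between levels of 6 and 8, and the irf2bp genes lie above 9.

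Small differences leaned downward. Of the 179 tested immune genes, 57 had a higher mean in mutants and 122 a lower one. The median difference was -0.053, against -0.016 over all tested windows, of which 45.3% were positive. Set by level, the medians of immune genes and of all windows were close below 10. They were -0.063 and -0.053 at levels of 4 to 6, and -0.055 and -0.043 at 6 to 8. Between 8 and 10 they were 0.054 and 0.065, and at 10 and above 0.50 and 0.21. All 3 mutant replicates lay above all 3 wildtype replicates at 17 immune genes (15.5% of all windows) and below them at 32 (14.0% of all windows). This lean depended on scaling: with cyclic loess normalization 79 immune genes were positive and 100 negative, and with each library's slope as a covariate 100 were positive and 79 negative. Mutant and wildtype replicates that bear the same number varied together. With that number as a block in the limma fit, 14 immune genes were called higher (14.0% of all windows) and 21 lower (9.47% of all windows), and all 17 calls above were among them.

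The ligands, 75 genes of which 73 were tested, held no called rise (8.02% of all windows) and 4 called falls (3.58% of all windows). Only 22 of the 73 had a level of at least 6. Below 6 few of all windows were called (0.394% higher and 0.625% lower), so these counts are read with the level. Of the 73 differences 62 were negative, with a median of -0.074. With the block, 1 ligand was higher (14.0% of all windows) and 13 were lower (9.47% of all windows). These shares were not split by level. The median ligand level was 5.64 in mutants, and all tested windows at levels of 4 to 6 had a median difference of -0.053. In the fit limited to levels of at least 6, 2 of the 22 ligands were positive and 20 negative, with a median of -0.15. There 0 ligands were called higher (10.7% of all windows) and 4 lower (4.82% of all windows). The median of all windows in that fit was 0.00074, and it includes windows stronger than any ligand. At levels of 6 to 8 the median of all windows was -0.043. The negative lean of the ligands held under cyclic loess normalization (50 of 73). It turned with the slope covariate, under which 41 of 73 were positive and none was called. The ligand with the largest difference was il15 (chr1:52623008-52627008, - strand), whose product sustains natural killer cells and T cells in mammals. Its replicates measured 7.77, 7.50 and 7.71 in mutants, against 7.94, 7.99 and 8.23 in wildtype. The groups did not overlap, in replicates or in single libraries. The difference was -0.39 ± 0.093 (95% interval -0.59 to -0.20), a 1.31-fold lower signal, with an adjusted p of 0.0101 by limma. Leaving out wildtype replicate 3, the highest of its group, gave an adjusted p of 0.0677, and the slope covariate one of 0.221 at about the same difference (-0.39).

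Interleukin 17c, a cytokine made by epithelial cells in mammals, was lower by a similar amount. At il17c (chr18:17086376-17090376, - strand) the replicates measured 6.65, 6.62 and 6.53 in mutants, against 6.91, 6.96 and 6.91 in wildtype. The replicates of each group lay within a narrow band and the bands were apart. The difference was -0.33 ± 0.072 (-0.48 to -0.18), 1.26-fold lower, with an adjusted p of 0.00581 by limma, and the call held whichever replicate was left out but not with the slope covariate (adjusted p = 0.189). Of the other interleukin 17 genes none was called. The differences were -0.24 at il17a/f1, -0.16 at il17a/f2, -0.17 at il17a/f3 and 0.15 at il17d; with the block il17a/f1 (adjusted p = 0.0169) and il17a/f3 (adjusted p = 0.0292) were also called lower by limma.

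The remaining interleukins and colony-stimulating factors, 22 of 24 genes tested in this role, were not called. The inflammatory cytokine gene il1b averaged 5.67 ± 0.093 in mutants and 5.67 ± 0.053 in wildtype, and the interval of its difference was -0.15 to 0.17. The anti-inflammatory cytokine gene il10 differed by -0.032 ± 0.085 (-0.21 to 0.15). The genes csf1a, csf1b and il34, whose products bind the Csf1 receptor of macrophages, differed by 0.13, -0.0032 and -0.15. The largest difference in this group that missed the threshold was at csf3b, one of a pair of genes for the neutrophil growth factor Csf3, where the mutants averaged 8.14 ± 0.14 and wildtype 8.38 ± 0.081 (difference -0.24 ± 0.086, adjusted p = 0.0787 by limma, 0.0183 with the block). With the block, il15l (-0.19, adjusted p = 0.0238) and il22 (-0.19, adjusted p = 0.0225) were called lower as well.

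All 6 interferon windows had a lower mean in mutants, with a median difference of -0.16, and 1 was called. The median was -0.11 with cyclic loess normalization, again with all 6 negative, but with the slope covariate 3 were positive and 3 negative, and neither setting gave a call. The type I interferon gene ifnphi1 (chr3:22233514-22237514, - strand) measured 6.45, 6.33 and 6.39 in mutants, against 6.67, 6.56 and 6.65 in wildtype. Its replicates did not overlap, but its libraries did. The difference was -0.24 ± 0.073 (-0.39 to -0.082) with an adjusted p of 0.0441 by limma, close to the threshold, and the call was lost without mutant replicate 2 or 3 or without any one wildtype replicate (adjusted p 0.062 to 0.156). It was also lost with cyclic loess (0.0936) and quantile normalization (0.0738), without limma's trend and robust options (0.0514) and with the slope covariate (difference -0.15, adjusted p = 0.512). The interferon gamma genes ifng1-1 and ifng1-2 differed by -0.24 ± 0.081 (adjusted p = 0.0658) and -0.20 ± 0.073 (adjusted p = 0.0898) by limma, and both were called lower with the block (adjusted p 0.00673 and 0.0163).

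Among 11 tumour necrosis factor ligands 1 was called. The gene tnfsf10l (chr7:22683633-22687633, - strand), related to the death ligand Tnfsf10 (TRAIL), measured 7.66, 7.74 and 7.68 in mutants, against 7.97, 8.03 and 7.99 in wildtype. No mutant library reached the lowest wildtype library. The difference was -0.30 ± 0.073 (-0.46 to -0.15) with an adjusted p of 0.0104 by limma, and the adjusted p was 0.0544 without wildtype replicate 2 and 0.104 with the slope covariate. Its relative tnfsf10 differed by -0.21 ± 0.083 and was called lower with the block alone (adjusted p = 0.0224). The classical inflammatory gene tnfa averaged 5.07 ± 0.10 in mutants and 5.11 ± 0.067 in wildtype, with an interval of -0.20 to 0.12, and tnfb differed by -0.0076 (-0.17 to 0.16).

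Of the 32 tested chemokine genes only 6 had a level of at least 6. None of the 32 was called, of 34 chemokine genes in all. Their median level was 5.13 in mutants, their differences lay between -0.21 and 0.16, and 27 of 32 were negative, against 21 with cyclic loess normalization and 12 with the slope covariate. Cyclic loess and quantile normalization each called 1 higher. With the block ccl44 (-0.21) was called lower and cxcl8b.1 (0.16), one of the genes for the neutrophil attractant Cxcl8, was called higher. The guidance chemokine gene cxcl12a measured 6.47, 6.64 and 6.70 in mutants, against 6.62, 6.66 and 6.77 in wildtype, with overlapping groups and a difference of -0.077 ± 0.080 (-0.25 to 0.092). Its copy cxcl12b differed by -0.066 ± 0.074 (-0.22 to 0.090). The difference at cxcl14 was -0.17 (adjusted p = 0.172 by limma) and that at ccl25b, a gene for a thymus chemokine, -0.074.

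All 56 receptor genes were tested, and only 25 had a level of at least 6. Below 6, 0.394% of all windows were called higher and 0.625% lower, so the receptor counts are read with the level. At all levels together 8.02% of all windows were called higher and 3.58% lower. Among the receptors 1 gene was called, lower in mutants. It was tnfrsf21 (chr20:35936702-35940702, - strand), which codes for death receptor 6, a protein known in mammals from neurons and lymphocytes. Its replicates measured 7.64, 7.52 and 7.67 in mutants, against 7.91, 7.81 and 8.12 in wildtype. Every mutant library lay below every wildtype library. The difference was -0.34 ± 0.086 (-0.52 to -0.16), 1.26-fold lower, with an adjusted p of 0.0155 by limma. Without mutant replicate 2, wildtype replicate 1 or wildtype replicate 3 the adjusted p was 0.0508, 0.0514 and 0.104, and with the slope covariate it was 0.217. The block added the tumour necrosis factor receptor gene tnfrsf18 (-0.20, adjusted p = 0.0132).

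Of 26 receptor genes for interleukins, interferons and colony-stimulating factors, 9 had a level of at least 6. None of the 26 was called, and their median difference was -0.042. The closest was the interferon gamma receptor gene ifngr1, with every mutant library above every wildtype library and replicates of 8.19, 8.23 and 8.15 in mutants, against 8.02, 7.99 and 7.93 in wildtype. Its difference was 0.21 ± 0.074, with an adjusted p of 0.0793 by limma and 0.0217 with the block. In the other direction il22ra2, for a decoy receptor of interleukin 22 in mammals, differed by -0.17 and was called lower with the block (adjusted p = 0.0397). The shared receptor subunit gene il6st differed by 0.12 ± 0.080 (-0.048 to 0.29) and the neutrophil growth factor receptor gene csf3r by -0.064 ± 0.073 (-0.22 to 0.090). The 10 chemokine receptor genes kept differences between -0.12 and 0.058. Of the paired receptors for Cxcl12, cxcr4b measured 7.70, 7.68 and 7.34 in mutants, against 7.78, 7.70 and 7.60 in wildtype, and cxcr4a averaged 7.99 ± 0.068 in mutants and 7.95 ± 0.13 in wildtype. Mutant replicate 3 was the lowest value at cxcr4b, the groups overlapped, and the intervals of the differences were -0.32 to 0.078 for cxcr4b and -0.13 to 0.22 for cxcr4a.

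No toll-like receptor gene was called, of 12 tested, 6 of which had a level of at least 6. The largest difference was at tlr2, a receptor for bacterial lipoproteins, with -0.22 ± 0.080 (adjusted p = 0.0925 by limma, 0.021 with the block). The receptor genes tlr3 and tlr9, whose products bind double-stranded RNA and unmethylated DNA, differed by -0.062 (-0.24 to 0.12) and -0.0047 (-0.18 to 0.17).

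Among the signalling genes inside the cell that were chosen by symbol, all called genes were higher in mutants. Outside these symbols, traf4a was called higher and traf3 and sarm1 lower, as given below. Of 41 genes for kinases, adaptors, transcription factors and inhibitors, 40 were tested, 7 were called higher and none lower, and 24 differences were positive. The median level of these windows in mutants was 7.91, against 5.64 for ligands and 5.77 for receptors in mutants. Of all windows 8.02% were called higher, with 3.14% at levels of 6 to 8 and 16.4% at levels of 8 to 10, so the share of this group is read with its level. Their median difference was 0.037. Cyclic loess normalization gave 5 higher and 1 lower. The replicate block gave 8 higher (14.0% of all windows) and 3 lower (9.47% of all windows). With the slope covariate none of the 40 was called, although the 7 genes stayed positive under every setting tried.

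The kinase gene jak2b (chr5:65362705-65366705, + strand), one of a pair of copies of jak2, measured 8.44, 8.64 and 8.58 in mutants, against 8.27, 8.35 and 8.24 in wildtype. Mutant replicates were all above wildtype replicates. The difference was 0.27 ± 0.080 (0.098 to 0.43), 1.2-fold, with an adjusted p of 0.0376 by limma, which was lost without any one replicate other than mutant replicate 1 (0.0684 to 0.137) and with cyclic loess (0.0549) or quantile normalization (0.0611). With the slope covariate the difference was 0.14 (adjusted p = 0.532). The adaptor gene myd88 differed by 0.076 ± 0.086 (-0.10 to 0.26) and the kinase genes jak1 and jak2a by 0.051 and 0.017; the window of jak1 overlaps that of mir101a.

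None of the 8 stat genes was called. The strongest of them, stat3, which serves the interleukin 6 family, averaged 10.42 ± 0.066 in mutants and 10.28 ± 0.041 in wildtype, a difference of 0.14 ± 0.075 (adjusted p = 0.282 by limma). The block called stat4 lower (-0.17, adjusted p = 0.046). Of 11 irf genes 1 was called: irf2a (chr1:39145577-39149577, + strand), a copy of the gene for interferon regulatory factor 2, a repressor of interferon-stimulated genes in mammals. Its replicates measured 7.39, 7.32 and 7.52 in mutants, against 7.11, 7.00 and 6.91 in wildtype. Every mutant library exceeded every wildtype library. The difference was 0.40 ± 0.080 (0.24 to 0.57), 1.32-fold, with an adjusted p of 0.00277 by limma, and the slope covariate was the one setting that ended the call (0.0842). The genes irf3 and irf7, whose products switch on type I interferon, differed by 0.017 (-0.17 to 0.20) and -0.11 (-0.27 to 0.043).

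Of the NF-kappa-B genes rela was called and rel and nfkb2 were not. The gene rela (chr7:665718-669718, - strand), for the p65 subunit, measured 9.27, 9.21 and 9.43 in mutants, against 8.90, 8.94 and 9.09 in wildtype. Replicates did not overlap. The difference was 0.32 ± 0.085 (0.15 to 0.50), 1.25-fold, with an adjusted p of 0.0175 by limma. Without mutant replicate 3, wildtype replicate 1 or wildtype replicate 2 it was 0.0965, 0.0912 and 0.0775, and with cyclic loess, quantile normalization and the slope covariate 0.0769, 0.086 and 0.36. The genes rel and nfkb2 differed by 0.037 ± 0.072 and -0.035 ± 0.071.

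Inhibitors held 4 of these calls, among 14 tested genes with a median level of 7.71 in mutants and a median difference of 0.0030. Of all windows 8.02% were called higher, with 3.14% at levels of 6 to 8 and 16.4% at 8 to 10. With the block 5 inhibitors were higher (14.0% of all windows) and 2 lower (9.47% of all windows). Both copies of socs5, a gene for a feedback inhibitor of cytokine and growth factor signalling, rose. At socs5a (chr12:24972556-24976556, - strand) the replicates measured 8.53, 8.86 and 8.90 in mutants, against 8.36, 8.42 and 8.32 in wildtype. At socs5b (chr13:8287225-8291225, + strand) they measured 6.76, 6.86 and 6.86 in mutants, against 6.50, 6.35 and 6.55 in wildtype. At both copies all mutant libraries lay above all wildtype libraries. The differences were 0.40 ± 0.093 (1.32-fold, adjusted p = 0.00906) at socs5a and 0.36 ± 0.077 (1.29-fold, adjusted p = 0.00429) at socs5b by limma, and these calls ended with the slope covariate alone. Under it the difference was 0.17 at socs5a (adjusted p = 0.517) and 0.33 at socs5b (adjusted p = 0.171).

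The gene socs3b (chr12:34170283-34174283, + strand), for the inhibitor of the interleukin 6 and Csf3 receptors, measured 8.23, 8.48 and 8.52 in mutants, against 8.12, 8.14 and 8.07 in wildtype. Mutant replicate 1 lay closest to wildtype. The difference was 0.30 ± 0.085 (0.12 to 0.48), 1.23-fold, with an adjusted p of 0.0281 by limma, and leaving out any one replicate other than mutant replicate 1 ended the call (0.0662 to 0.127), as did the slope covariate (difference 0.13, adjusted p = 0.601). The I-kappa-B gene nfkbiab (chr17:12786599-12790599, + strand), itself a target of NF-kappa-B in mammals, measured 10.08, 10.04 and 10.18 in mutants, against 9.76, 9.84 and 9.91 in wildtype. Replicates were apart. The difference was 0.26 ± 0.078 (0.096 to 0.42), 1.2-fold, with an adjusted p of 0.0371 by limma; with cyclic loess normalization the difference was 0.069 (adjusted p = 0.564), with quantile normalization 0.062 (0.602) and with the slope covariate 0.17 (0.385). Without mutant replicate 3 or any one wildtype replicate the adjusted p lay between 0.0607 and 0.156. In the other direction socs1a, for the main inhibitor of interferon gamma signalling, differed by -0.24 ± 0.089 (adjusted p = 0.0864 by limma, 0.0133 with the block), and socs4 by -0.19 ± 0.077 (adjusted p = 0.119 by limma, 0.0229 with the block). The block also added socs9 as higher (0.21, adjusted p = 0.0267). The inhibitors therefore included values on both sides of 0, 7 positive and 7 negative.

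**Figure D2:**
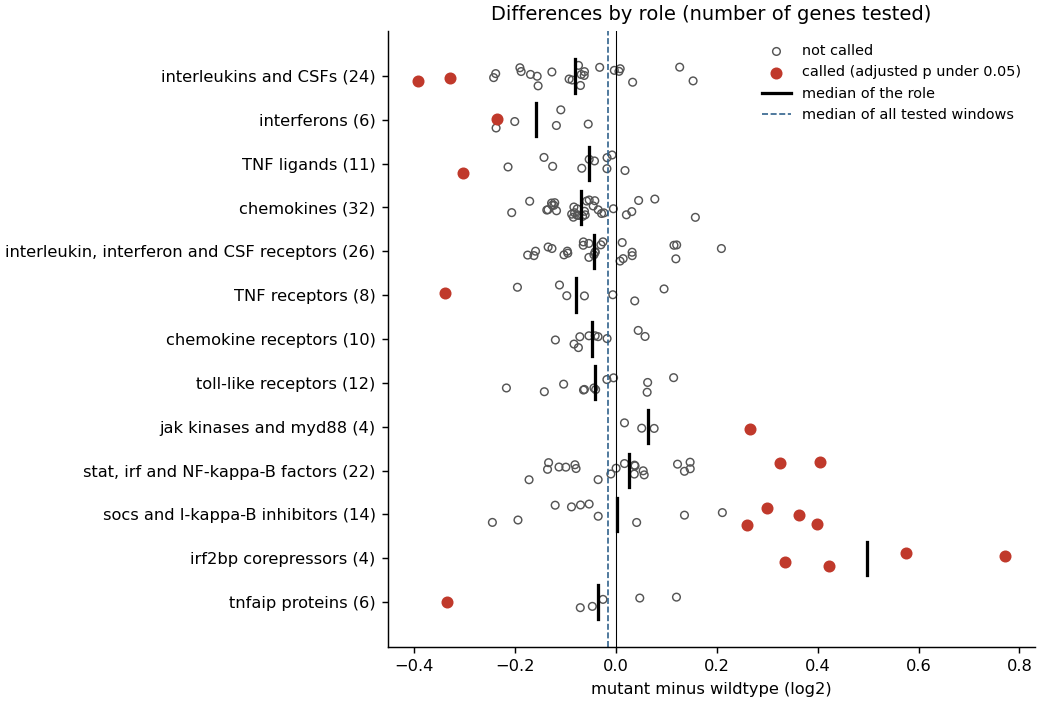
Differences (mutant minus wildtype, log2, horizontal axis) of the 179 tested genes by role, with the number tested in brackets; filled red points are called genes and black bars are role medians. The dashed line marks the median of all tested windows at -0.016; called ligands and receptors lie left of it and called signalling genes right of it.

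The irf2bp genes are named for transcriptional corepressors that in mammals bind Irf2 and are expressed far beyond the immune system. The 3 largest rises were at genes of this family. All 4 were called higher, with a median difference of 0.50 and a median level of 10.7 in mutants; with cyclic loess normalization the median difference was 0.23 and with the slope covariate 0.34, and 2 of the 4 were called under each. At irf2bpl (chr17:11173893-11177893, - strand) the replicates measured 10.77, 10.93 and 11.05 in mutants, against 10.12, 10.18 and 10.12 in wildtype. Every mutant library was above every wildtype library. The difference was 0.77 ± 0.081 (0.60 to 0.94), 1.71-fold, with an adjusted p of 8.7e-06 by limma. At irf2bp2a (chr13:49151958-49155958, - strand) the replicates measured 11.65, 11.74 and 11.78 in mutants, against 11.07, 11.21 and 11.16 in wildtype. Libraries were again wholly apart, and the difference was 0.57 ± 0.075 (0.42 to 0.73), 1.49-fold, with an adjusted p of 6.7e-05 by limma. These 2 genes kept their calls under all 16 alternative settings, with differences of 0.53 and 0.24 under cyclic loess normalization.

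The other irf2bp genes rose less. At irf2bp1 (chr18:46369657-46373657, - strand) the replicates measured 10.37, 10.40 and 10.60 in mutants, against 9.91, 10.07 and 10.13 in wildtype, with libraries apart, and the difference was 0.42 ± 0.085 (1.34-fold, adjusted p = 0.00317 by limma). The difference was 0.20 with cyclic loess normalization (adjusted p = 0.0606), 0.18 with quantile normalization (0.0926) and 0.23 with the slope covariate (0.239). At irf2bp2b (chr11:44458987-44462987, + strand) they measured 9.18, 9.42 and 9.59 in mutants, against 8.98, 9.13 and 9.08 in wildtype. Here mutant replicate 1 stood close to wildtype, and the difference was 0.33 ± 0.096 (1.26-fold, adjusted p = 0.0303 by limma). The call was lost without mutant replicate 2 (0.0679), mutant replicate 3 (0.156), wildtype replicate 1 (0.14) or wildtype replicate 3 (0.0818). It was also lost with cyclic loess (difference 0.22, adjusted p = 0.0944) and quantile normalization (0.21, 0.102) and with the slope covariate (0.051, 0.855). Of the windows at a level of 10 or above in the whole table, 42.2% were called higher, and 3 of these 4 genes lie there.

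Of 7 tnfaip genes 6 were tested and 1 was called. The gene tnfaip8l3 (chr18:39600593-39604593, - strand), for a phosphoinositide transfer protein in mammals, measured 6.97, 7.13 and 6.97 in mutants, against 7.19, 7.49 and 7.38 in wildtype. Replicates did not overlap. The difference was -0.33 ± 0.085 (-0.51 to -0.16) with an adjusted p of 0.0149 by limma, and without mutant replicate 3, wildtype replicate 2 or wildtype replicate 3 it was 0.0588, 0.0881 and 0.0571. The slope covariate gave a larger difference of -0.50 that was not called. Without the irf2bp and tnfaip genes, the immune genes counted 7 called higher and 5 called lower of 169 tested.

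**Figure D3:**
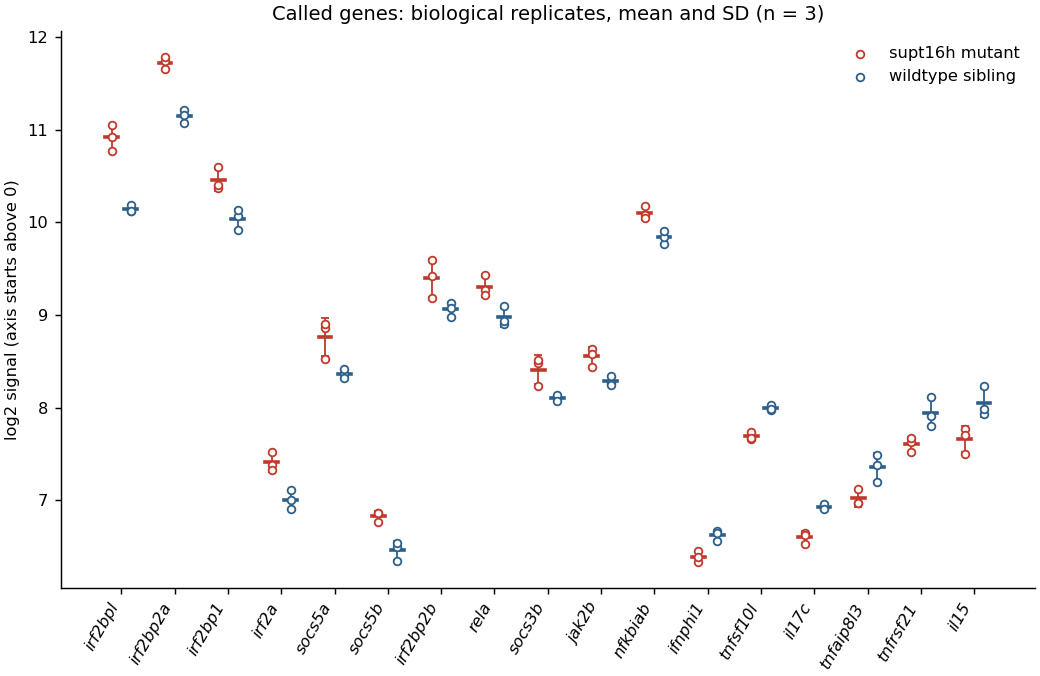
Log2 signal (vertical axis, starting above 0) of the 17 called genes in each biological replicate, mutants in red left of wildtype in blue; bars are the mean and SD of 3 replicates. The replicates of both groups are apart at every gene shown, with the widest gap at irf2bpl and the narrowest between groups at irf2bp2b.

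Zebrafish keep many genes as a pair of copies from a genome duplication in the fish lineage, and 18 pairs named by a final a and b are described, not all of which need stem from that event. At irf2bp2 and socs5 both copies were called higher, at jak2 and nfkbia the b copy was, and in the other 14 pairs neither was called. The signs of the copies differed in 5 pairs. Whether copies changed unequally was tested on the difference between copies in each replicate, with an exact two-sided permutation test of 3 mutant against 3 wildtype values, which cannot give a p below 0.1. That smallest value was reached in 3 of 18 pairs, and none could pass a threshold of 0.05, nor an adjustment over 18 pairs. In these, the mutant minus wildtype difference of the a copy minus that of the b copy was 0.24 at irf2bp2, -0.25 at jak2 and -0.28 at stat5, where stat5a differed by -0.13 and stat5b by 0.15. For nfkbia the copies differed by -0.22 (exact permutation p = 0.2), and for socs5 by 0.035 (exact permutation p = 1.0).

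**Figure D4:**
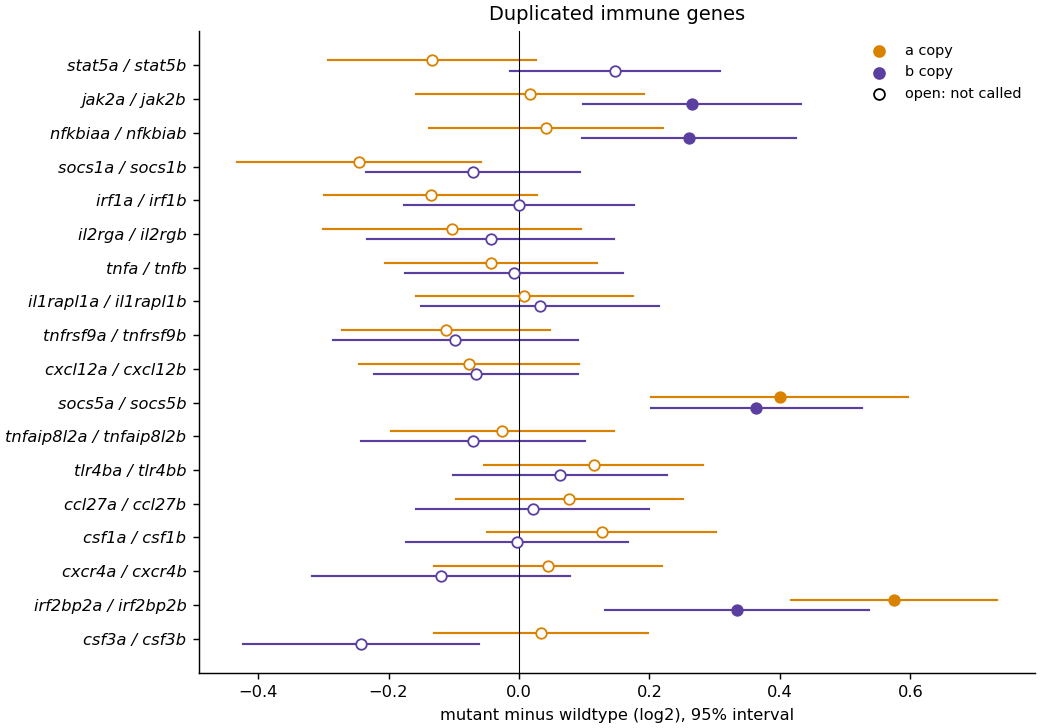
Mutant minus wildtype difference (log2, horizontal axis) with its 95% interval from limma for the a copy (orange) and the b copy (purple) of 18 pairs, filled where called. The pairs are ordered by the difference between copies, from stat5 at the top, where b exceeds a, to csf3 at the bottom, where a exceeds b.

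Many immune genes lie near one another, some as tandem copies and some as unlike neighbours such as socs1b and tlr2. Counting genes whose windows lie within 100 kb of each other, 53 of the 183 genes fell into 21 groups. The group with the most genes, 5, was chr4:13509097-13618087, which holds ifng1-2, ifng1-1, il26, il22 and irf5. All 5 differences there were negative, between -0.24 and -0.074, none was called, and 3 were called lower with the block (9.47% of all windows). The interferon genes ifnphi3, ifnphi2 and ifnphi1 at chr3:22213034-22237514 were also all lower in mean, between -0.24 and -0.11, with 1 call. The 4 genes tlr21, cxcr3.2, cxcr3.3 and cxcr3.1 at chr16:11896206-11970407 lay between -0.064 and -0.018. Beside these negative runs, all tested windows had a median difference of -0.053 at levels of 4 to 6 and -0.043 at 6 to 8. Other groups had values on both sides of 0. The 4 genes ccl34b.1, ccl34b.4, ccl34b.9 and cxcl32b.1 lay between -0.13 and 0.031, and tlr4ba, tlr4al and tlr4bb between -0.040 and 0.11. Signs were also mixed at stat3 with stat5a, at tnfsf14 with tnfsf18 and at cxcl19 with cxcl8b.3 and cxcl8b.1. Neighbouring windows share their chromosomal surroundings and cannot be counted as separate evidence. In addition, 16 immune windows overlap the window of another gene, among them irf5, stat4 and jak1, so part of their signal may belong to that neighbour's start site.

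Other genes of the same pathways were read from the same fit. Of 30 adaptor and kinase genes outside the symbol families, 29 were tested, 1 was called higher and 1 lower. They were traf4a, which measured 8.84, 9.15 and 9.11 in mutants, against 8.65, 8.84 and 8.69 in wildtype (difference 0.30 ± 0.091, adjusted p = 0.0376 by limma), and traf3, which measured 7.57, 7.76 and 7.84 in mutants, against 7.97, 7.98 and 8.08 in wildtype (difference -0.29 ± 0.083, adjusted p = 0.0312 by limma). Both code for ubiquitin ligases of the tumour necrosis factor receptor pathways, and traf3 restrains the alternative NF-kappa-B route in mammals. The mutant and wildtype replicates of traf4a overlapped, those of traf3 did not.

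Of 12 cytosolic sensor and inflammasome genes none was called higher and 1 was called lower. This was sarm1, a toll-receptor adaptor best known as the NAD-consuming trigger of axon degeneration, at 6.97, 6.88 and 6.93 in mutants, against 7.26, 7.27 and 7.34 in wildtype (difference -0.36 ± 0.071, adjusted p = 0.00266 by limma). All its mutant libraries lay below all its wildtype libraries. Of 26 antiviral and inflammatory effector genes 1 was called, the interferon-stimulated gene isg15, at 7.29, 7.55 and 7.79 in mutants, against 7.14, 7.23 and 7.18 in wildtype (difference 0.36 ± 0.10, adjusted p = 0.0339 by limma). The mutant replicates of isg15 were spread wide, with an SD of 0.25 in mutants and 0.044 in wildtype, and none reached down to wildtype. Over these lists together, 2 of 67 tested genes were called higher, where 8.02% of all windows were, and 2 lower, where 3.58% were. Apart from the block, the alternative settings were not read for these lists, so how firmly these calls hold is unknown. With the block 5 were called higher (14.0% of all windows) and 7 lower (9.47%). The block added traf7 (0.21), tab3 (0.21) and ptpn11a (0.24) as higher. It added nod2 (-0.19), caspb (-0.18), rsad2 (-0.23), eif2ak2 (-0.32) and cybb (-0.18) as lower, the first a sensor of bacterial cell walls and the last a subunit of the phagocyte oxidase.

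Markers of leukocytes, the cells that use most of these genes, were set beside them. Of 20 markers 17 were in the table, all 17 were tested, none stood at 0 and none was called. Their mean level was 6.36, 6.35 and 6.35 in mutants, against 6.39, 6.41 and 6.41 in wildtype, with a median difference of -0.048. With the block coro1a (-0.21), irf8 (-0.20) and rag1 (-0.21) were called lower (9.47% of all windows). The block called lcp1 (0.20) higher (14.0% of all windows). Of the 17 marker differences 7 were positive and 10 negative. The median level of the markers was 5.80 in mutants and 6.01 in wildtype. All tested windows had a median difference of -0.053 at levels of 4 to 6 and -0.043 at 6 to 8. The part of leukocyte number in the ligand values was not tested.

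The authors' deposited table gives its own adjusted p-value per window, under 0.05 at 19.0% of all windows and at 25 of the 183 immune genes. Those 25 included all 17 genes called here. By the library columns 13 of the 25 were higher in mutants and 12 lower, while the log2 fold change printed in the authors' deposited table had the opposite sign at all 25. The 8 further genes were csf3b, ifngr1, il15l, il17a/f1, il22, socs1a, socs9 and tnfsf10, each of which was also called with the block. All directions given here, also those of the 17 calls, follow the group names of the library columns. They would be reversed if the sign of the printed fold change were the right one. Which of the 2 is right was not tested.

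**Figure D5:**
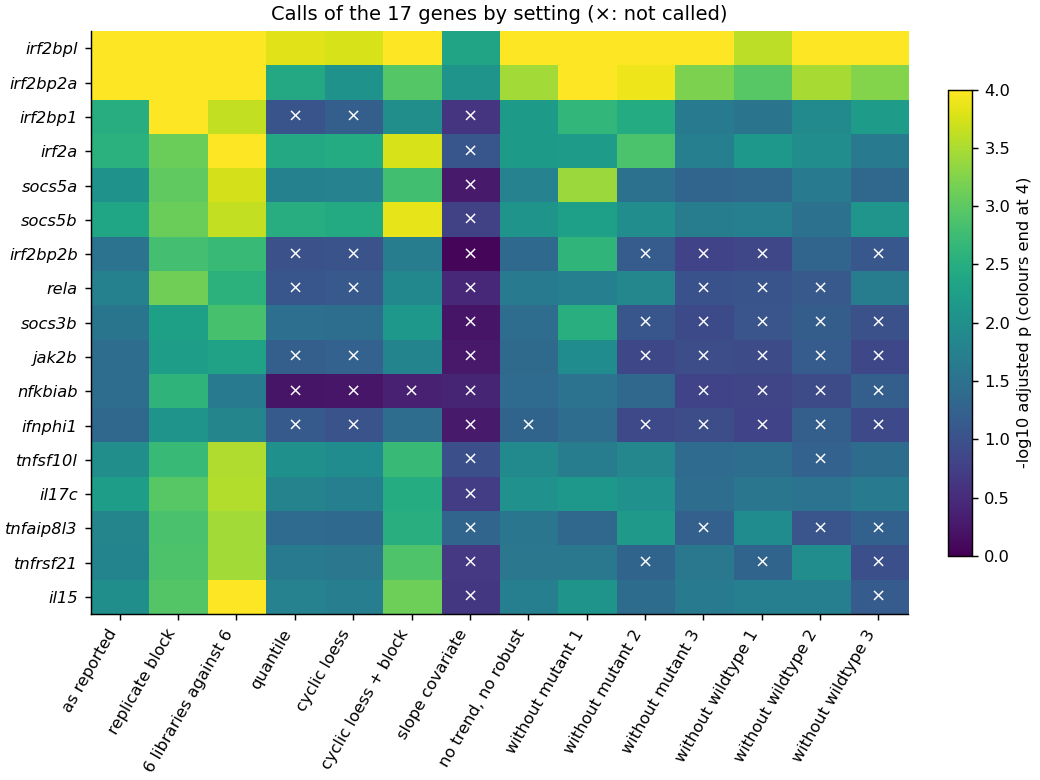
Adjusted p from limma, as -log10 (colour, ending at 4), of the 17 called genes (vertical axis) under the reported setting and 13 alternatives (horizontal axis), with crosses where a gene was not called. The genes irf2bpl and irf2bp2a have no cross, and irf2a, socs5a, socs5b and il17c have one, under the slope covariate.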

How the data were processed

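ATAC-seq libraries of 6 mutant and 6 wildtype samples were analysed from the authors' deposited table of 16555 start-site entries on GRCz10 (danRer10). Per the submitters' processing notes, CASAVA 1.8, FastQC 0.11.2 and HOMER 4.9 were used. For the aligner, read filters and any Tn5 shift the entry is: not given in the sources used here. How they shaped the values is unknown. The library columns hold normalized log2 values deposited by the authors, who do not name the transformation, which compresses windows of low signal. The p-values and adjusted p-values per window were deposited by the authors without the test's name. The log2 fold change in the authors' table has the reverse sign of the mutant minus wildtype difference between library columns, which was used here.

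Repeated entries were collapsed to 15674 windows (values differing by at most 0.219), of which 15431 had a mean log2 value of at least 4. Technical libraries named in the column headers were averaged. Groups were compared with limma 3.58.1 (trend and robust options) in R 4.3.3, 3 replicates against 3, and p-values were adjusted after Benjamini and Hochberg over every window tested. Nothing says whether the replicates came from separate clutches, so p-values measure the spread between these samples. Windows can overlap and are not independent. The method was tested on simulated data: with 15431 windows, 3 against 3, changes of 0.3 were recovered at 6 of 50 windows, of 0.6 at 37 of 50 and of -0.6 at 40 of 50, with 3 false calls. The simulated noise was normal and independent, without the pairing of replicates or the difference in slope seen in the data. Far fewer windows were changed than were called in the data. Recovery in the data can therefore differ, and the false calls do not bear on the slope.

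Deviations from the group means correlated between same-numbered mutant and wildtype replicates (0.461, 0.513 and 0.534), so the numbers in the column headers were taken to pair the samples. Deviations cancel out within a group, so the negative values between the others (-0.328 to -0.173) follow from these and are not separate evidence. The reported calls come from the fit without this pairing. With the number as a block, 14 immune genes were called higher and 21 lower, in place of 11 and 6. The balance of directions thus depended on that choice. The block on that number is given where it changed a call.

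Genes, roles and the other pathway lists were chosen with earlier results of these data known, so counts over them are descriptions and no list was tested. Values of 1 pair of gene copies are not reported here. Named are all called genes, the 3 strongest and 3 weakest tested windows, well-known genes of each role and called genes of the pathway lists. Genes called with the block alone and members of the neighbouring groups described were also named, chosen after their values were seen. The plan to search promoters for motifs was not carried out, since no genome sequence was used here, and no sequence is shown. Alternatives were the block, 6 libraries against 6, other normalizations, a slope covariate, other level filters, limma without its options, another choice of window and leaving out each replicate. Python 3.11.15, pandas 2.3.3 and matplotlib 3.10.9 were used for tables and figures.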

Additional observations from a re-analysis of the deposited data

How the results depend on the processing

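All 17 called genes kept their sign under all 16 alternatives, and irf2bpl and irf2bp2a also kept their calls. Leaving out single replicates gave 6 to 11 genes called higher, 2 to 11 called lower, 1056 to 2223 windows called over the whole table and a median difference of -0.081 to -0.032; 7 of the 17 genes kept their calls throughout and 10 did not. The replicate block gave 21 lower calls, 14 higher calls and 3621 windows; it ended no call of the 17 genes. With 6 libraries against 6, 12 genes were lower and 2969 windows were called. The library slope as a covariate, which varies with the groups, left 2 genes higher, 0 lower and 442 windows, with a median of 0.032; at an unadjusted p under 0.05 it gave 16 genes higher and 11 lower. The median was -0.016 with quantile normalization and -0.013 with cyclic loess normalization, alone or with the block, and both alone gave 8 genes higher and 7 lower. The share of calls that were higher, 69.2% of all called windows as reported, was 55.8% with quantile and 58.9% with cyclic loess normalization. Cyclic loess with the replicate block gave 15 genes higher, 12 lower and 3214 windows, and called irf1b lower (-0.18, adjusted p = 0.0285 by limma) where the reported difference was 0.00041; the cause of these shifts was not tested. Of 58 named genes that were not called, 26 changed sign in some setting. Recovery in simulated data was measured at sizes of 0.3 and 0.6, in either direction. For the smaller differences seen at most immune genes it was not tested. A gene that was not called may still differ, and unknown read depth limits the weakest windows.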

Other observations

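The interferon regulatory factor gene irf9, whose product acts in type I interferon signalling, stood out for its spread and not for a group difference. Its replicates measured 8.48, 8.97 and 8.28 in mutants, against 8.44, 8.73 and 8.20 in wildtype. In both groups replicate 2 was the highest and replicate 3 the lowest, and the difference was 0.12 ± 0.22, not called by limma (adjusted p = 0.802; 0.175 with the replicate block).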
